A study of Mus musculus with 12 samples.

Results

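The histone deacetylases examined were Hdac1, Hdac2, Hdac3, Hdac4, Hdac5, Hdac6, Hdac7, Hdac8, Hdac9 and Hdac11, which are 10 of the 24452 gene symbols in the count tables. They were taken by symbol, and the estimated counts of their 24 RefSeq transcripts were summed per symbol. All 10 passed the filter on low counts, which kept 14739 symbols. RNA-Seq had been performed on somatosensory cortex of male C57BL/6 mice at postnatal day 7, and the 12 libraries fell into 4 groups of 3. WT mice received either Saline or EtOH (2.5 g/kg per injection, given intraperitoneally as a pair of injections), p53 KO mice received either Saline or EtOH, and tissue was taken 8 h after the last injection. The KO mice carried the germline Trp53tm1Tyj allele in every cell, and both genotypes came from matings of heterozygotes. The labels do not tie libraries to litters or pools, so p-values measure the spread between these libraries, and in whole tissue fewer cells of a type and less RNA per cell cannot be told apart. Libraries are numbered 1 to 3 within each group, and these numbers pair nothing across groups.

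Histone deacetylases remove acetyl groups from lysines of histones and of other proteins, and deacetylated chromatin is generally less accessible to transcription. The class I enzymes Hdac1, Hdac2, Hdac3 and Hdac8 are mostly nuclear, and the first 3 of these work inside corepressor complexes such as Sin3, NuRD, CoREST and NCoR. The class IIa members Hdac4, Hdac5, Hdac7 and Hdac9 have little deacetylase activity of their own, bind Mef2 transcription factors, and leave the nucleus when kinases of the CaMK and SIK families phosphorylate them. Hdac6 is a class IIb enzyme that acts on tubulin in the cytoplasm, and Hdac11 is the only class IV enzyme. In the developing forebrain, Hdac1 and Hdac2 are known for overlapping roles in neuronal differentiation, and Hdac2 for restraint of synaptic genes in neurons.

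Total estimated counts ranged from 719735 to 17066392 per library, and the histone deacetylases together took 0.0396% to 0.0956% of them. The 2 lowest totals belonged to WT Saline library 1 (1953154) and to the library labelled KO EtOH 1 (719735), whose names open with L where the others open with P. Composition also differed, since the TMM factor was 0.564 in WT Saline library 2 and 0.832 to 1.23 in the other 11, and the mean transcript length weighted by counts ran from 2249 to 3832 bases. Summed Trp53, the targeted gene, was not lower in KO (11.1 to 28.7 counts per 1000000, CPM, against 3.68 to 26.2 in WT). The share of its count assigned to transcript NM_001127233 was 7.01% to 23.1% in WT libraries and 48.3% to 70.6% in 5 KO libraries, but 7.01% in the library labelled KO EtOH 1. That share rests on 14 Trp53 counts and equals, to the last digit printed, that of 3 WT libraries with 20 to 78 Trp53 counts, and reads were divided between transcripts in nearly fixed shares in some libraries (described with Hdac5), so it does not settle the genotype. Comparisons that use KO EtOH mice are given with and without that library where it moved them. Neuronal markers were present throughout, and all 5 (Snap25, Tubb3, Rbfox3, Stmn2, Syt1) were detected. Markers of choroid plexus summed to 0 to 4953 CPM and those of striatum to 66.5 to 736.5 CPM, so the libraries differed in these cells. According to the study's methods, part of the cortex samples were laser microdissected and the others hole-punched from frozen brain, and which libraries these were is not given.

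When levels were set per transcript length (RPKM, the authors' values summed per gene), Hdac2 was the most abundant histone deacetylase, with a median of 82.4 over the 12 libraries (54.97 to 156). Hdac3 followed at 53.2 and Hdac11 at 33.1. Hdac5, Hdac6 and Hdac1 lay close together at 18.8, 15.6 and 14.3, and Hdac9, Hdac8, Hdac7 and Hdac4 were the lowest at 5.83, 5.09, 4.32 and 2.86. Several neighbours in this order did not differ beyond their spread. Hdac6 exceeded Hdac1 in only 6 of 12 libraries, Hdac9 exceeded Hdac8 in 7, Hdac8 exceeded Hdac7 in 7, and Hdac2 exceeded Hdac3 in 8. The steps from Hdac3 to Hdac11 and from Hdac1 to Hdac9 held in all 12 libraries. The deposited RPKM had nearly the same sorted values in every library (99.8% of 20504 ranks within 0.1%), so they show the place of a gene within its library rather than its share of the reads. Hdac5 and Hdac7 had the highest ratios of highest to lowest library on this scale, with ranges of 4.49 to 37.3 and 1.52 to 9.93.

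**Figure D1:**
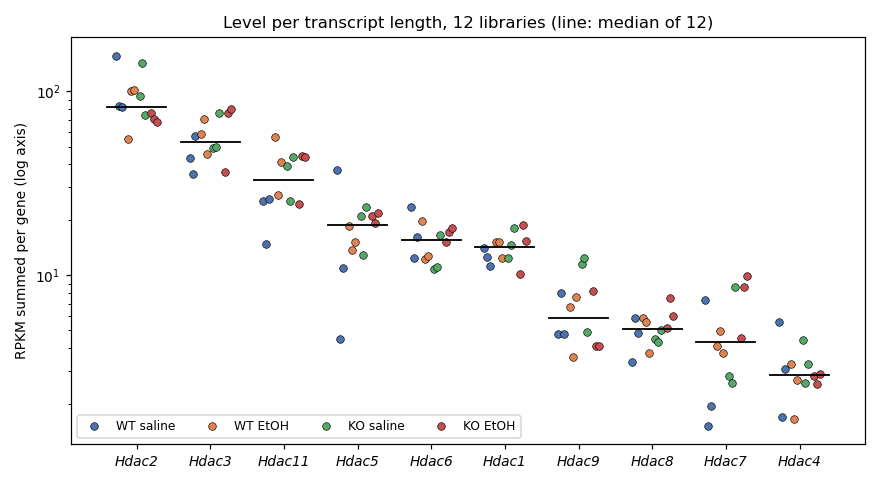
RPKM summed per gene (log axis) for the 10 histone deacetylases in order of their median over 12 libraries. Each point is a library coloured by group and each line is the median, from 82.4 for Hdac2 to 2.86 for Hdac4, with wide scatter for Hdac5 and Hdac7 among the WT Saline libraries.

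The first comparison asked whether EtOH altered these genes in WT mice. None of the 10 passed an adjusted p under 0.05 in the edgeR quasi-likelihood test, where 0.0746% of all symbols did. At the study's own adjusted level of 0.30, which 22.5% of symbols met, Hdac2 alone was counted, and at an unadjusted p under 0.05 (18.3% of symbols) the count was 0. The count at 0.30 turned on single libraries. It was 0 in 9 of the 12 fits that left out 1 library and 4 without WT Saline library 1. With DESeq2 it was 2, and with limma on RPKM it was 0. The share of all symbols at 0.30 was not counted in those fits. Hdac2 was also the only member whose libraries did not overlap between the groups, a property of 19.6% of symbols. With DESeq2, likewise, none was called, while 488 of 14739 symbols were, and at its unadjusted p under 0.05 there was 1 (Hdac2). The share of all symbols at that unadjusted level is given here for edgeR only. The median log2 fold change was 0.08 over the 10 genes and 0.06 over all symbols tested, with 6 members above 0 and 4 below.

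Hdac2 lies on chromosome 10 (chr10:36974544-37001888, + strand, mm10) and is listed as a single transcript, NM_008229, which codes for 488 residues. It was measured at 360.4, 375 and 253 CPM in the WT Saline libraries. In WT EtOH libraries it was measured at 101, 201 and 241 CPM. The highest EtOH library thus lay just below the lowest Saline library. The means were 330 ± 67.0 and 181 ± 72.3 CPM (SD, n = 3 each), and the exact permutation test over the 6 libraries gave p = 0.1, the smallest that 3 against 3 allows. In edgeR the log2 fold change was -0.87 (standard error 0.43, 95% interval -1.79 to 0.06), with an unadjusted p of 0.0636 and an adjusted p of 0.294. The KO libraries held 172, 297 and 143 CPM after Saline and 236, 128 and 126 CPM after EtOH, so both KO groups overlapped the WT EtOH range and 5 of their 6 values lay below all WT Saline values.

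Hdac2 moved with the make-up of the libraries. Across the 12 libraries its CPM had a rank correlation of -0.77 with the count-weighted transcript length and of -0.82 with the TMM factor. This describes libraries that share their groups, and CPM is itself scaled by the TMM factor. The Hdac2 transcript is short (2005 bases), and symbols nominally lower in WT EtOH had a median length of 1280 bases against 4435 bases for those nominally higher. The transcripts of Hdac1, Hdac3 and Hdac8 are about as short (2038, 2032 and 1936 bases). Their rank correlations with the count-weighted length were 0.39, -0.08 and 0.54. The 5 neuronal markers summed to 7879 to 8339 CPM in WT Saline and to 4030 to 6334 CPM in WT EtOH, and the 4 markers of excitatory cortical neurons to 699.8 to 1281 and 294 to 984 CPM. The 5 red blood cell markers summed to 337 to 1319 CPM in WT Saline against 50.3 to 145 CPM in WT EtOH. Markers of inhibitory neurons (4 of 4 detected) went the other way, from 139 to 186 CPM in WT Saline and from 304 to 356 CPM in WT EtOH. What part these had in the Hdac2 difference was not tested. Without TMM factors the Hdac2 log2 fold change was -0.44, while the median of all symbols shifted up by 0.44, and on the authors' RPKM it was -0.30.

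The start of Hdac2 is shown because Hdac2 had the lowest fold change of the members in WT EtOH, and because it can be set beside the starts of Hdac9 and Hdac7 printed further on. The 300 bases are those around the start of NM_008229 (chr10:36974294-36974593, + strand, GRCm38.p6, RefSeq), read 5′ to 3′ from 250 before the start. Capitals mark any match, on either strand, to 1 of 6 motifs. These were the GC box (letters GGGCGG), the CCAAT box (named by its letters), the TATA box (letters TATAAA), the cyclic AMP response element (letters TGACGTCA), the E-box (letters CACGTG) and the p53 half-site, and matches to one may overlap those to another.
Hdac2: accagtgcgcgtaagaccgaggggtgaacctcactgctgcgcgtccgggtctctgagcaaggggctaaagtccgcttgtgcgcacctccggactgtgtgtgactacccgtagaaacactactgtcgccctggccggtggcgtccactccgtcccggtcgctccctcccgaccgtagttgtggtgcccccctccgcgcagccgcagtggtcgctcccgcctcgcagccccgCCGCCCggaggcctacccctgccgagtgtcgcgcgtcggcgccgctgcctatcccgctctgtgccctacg
This window has 69.7% G and C and 36 CpG, against medians of 52.7% and 7 over 32851 RefSeq promoters of that length. Its only match is a GC box at -20, a motif found in 35.7% of those promoters. Promoters were at hand for 8 members (12 windows), of which 8 windows exceeded 60% G and C, as did 28.6% of all promoters.

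Among the other class I genes, Hdac1, Hdac3 and Hdac8 showed differences smaller than their errors in WT mice. Hdac1 (chr4:129516104-129542646) was measured at 25.0 to 32.4 CPM after Saline and at 28.1 to 32.9 CPM after EtOH (log2 fold change 0.13 ± 0.33, standard error). Hdac3, the catalytic subunit of NCoR and SMRT complexes, lies on chromosome 18 and spanned 103 to 170 and 107 to 145 CPM (-0.12 ± 0.33). Hdac8 (chrX:102284638-102505158), which deacetylates cohesin, was low throughout at 6.17 to 10.1 and 7.41 to 12.3 CPM (0.31 ± 0.40). The 2 groups overlapped for each of these genes. The 95% intervals still allowed log2 changes of up to 0.82 for Hdac1, of down to -0.82 for Hdac3 and of up to 1.16 for Hdac8.

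Hdac11 (chr6:91156815-91174683) had the next smallest p. This class IV enzyme, which is abundant in brain and removes long-chain fatty acyl groups, was measured at 75.1, 45.4 and 85.7 CPM in WT Saline and at 129, 73.1 and 124 CPM in WT EtOH. A pair of EtOH libraries lay above the whole Saline range while the remaining one lay inside it. The log2 fold change was 0.66 ± 0.35 (unadjusted p = 0.0812 and adjusted p = 0.320 in edgeR). In KO mice the ranges were 71.2 to 109 CPM after Saline and 78.6 to 106.5 CPM after EtOH, and the log2 fold change was 0.08 ± 0.35. Hdac6 (chrX:7930122-7947889), the tubulin deacetylase, stood at 113, 52.4 and 71.2 CPM in WT Saline and at 92.4, 57.8 and 59.2 CPM in WT EtOH (-0.17 ± 0.36), with full overlap.

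**Figure D2:**
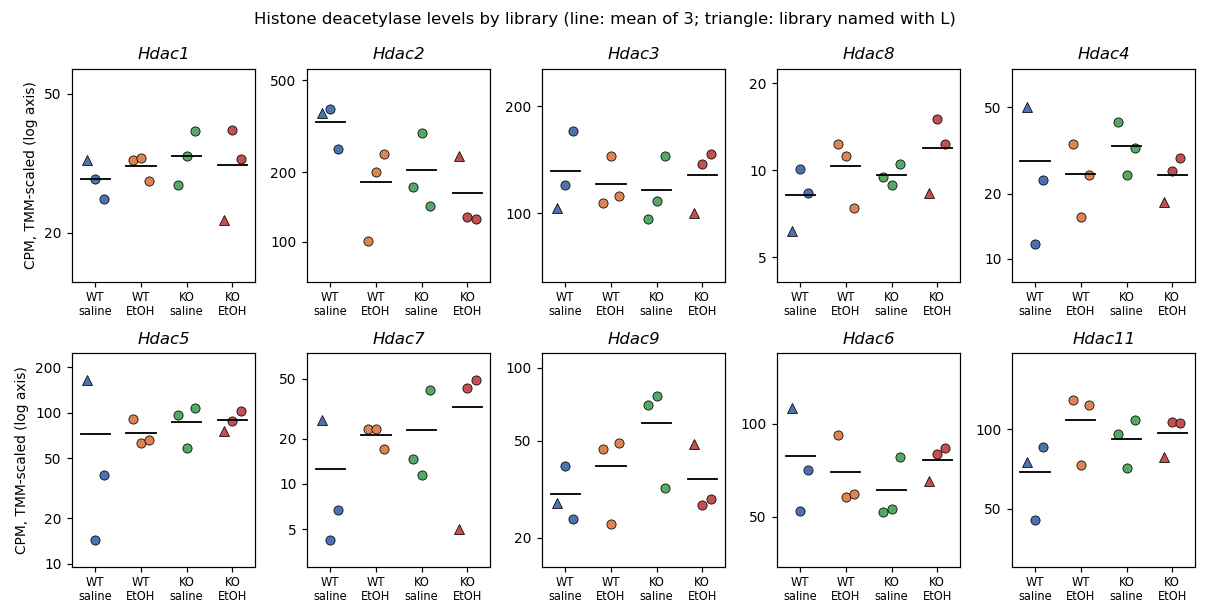
TMM-scaled CPM (log axis) of each histone deacetylase in each library by group, with lines at the group means and triangles for the 2 libraries named with L. Hdac2 is high in all 3 WT Saline libraries (253 to 375 CPM), whereas, among the WT Saline libraries, Hdac5 and Hdac7 are highest in library 1 (triangle) and lowest in library 2.

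For Hdac5, Hdac7 and Hdac4 the WT Saline libraries stood far apart. Hdac5 (chr11:102195747-102230172), a calcium-responsive Mef2 repressor in neurons, was measured at 165, 14.3 and 38.8 CPM in WT Saline libraries 1, 2 and 3. In WT EtOH it was measured at 90.5, 62.7 and 65.8 CPM, inside the Saline range, and the log2 fold change was 0.03 ± 0.61. Hdac7 (chr15:97792664-97844502), best known from endothelium and thymus, stood at 26.7, 4.23 and 6.69 CPM in WT Saline and at 23.3, 23.2 and 17.0 CPM in WT EtOH (0.83 ± 0.74). Hdac4 (chr1:91928779-92180341), a repressor in neurons and cartilage, had 50.4, 11.8 and 23.2 CPM in WT Saline and 33.9, 15.6 and 24.5 CPM in WT EtOH (-0.18 ± 0.48). All 3 genes were highest in library 1, which had the lowest total of the WT Saline group, and lowest in library 2, which had the low TMM factor. Hdac9 did not share that order, with 27.8, 39.3 and 23.9 CPM in WT Saline and 46.5, 22.8 and 49.1 CPM in WT EtOH (0.38 ± 0.43).

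The fold changes of Hdac5 and Hdac7 depended on single WT Saline libraries, and both genes were called only when both libraries named with L were left out. When both libraries named with L were left out, Hdac5 was called in WT EtOH versus Saline (log2 fold change 1.38, adjusted p = 0.0379 in edgeR), and so was Hdac7 (1.86, adjusted p = 0.0315). In that fit 21.5% of all symbols were called, so 2 of 10 members is a share close to the background. Without WT Saline library 1 alone the values were 1.39 for Hdac5 (adjusted p = 0.0610 in edgeR) and 1.88 for Hdac7 (adjusted p = 0.0974 in edgeR). Leaving out WT Saline library 2 instead gave -0.48 for Hdac5 and 0.40 for Hdac7. The sign of the Hdac5 difference therefore turned on which Saline library was kept, and Hdac4 showed the same turn (0.43 without library 1 and -0.58 without library 2).

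**Figure D3:**
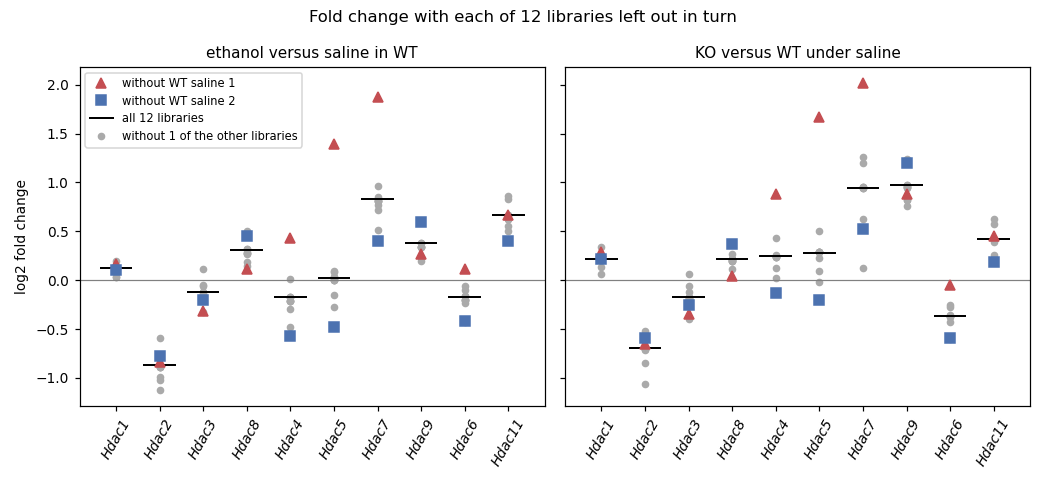
Log2 fold change of each histone deacetylase in WT EtOH versus Saline (left) and in KO versus WT under Saline (right), when single libraries were omitted. Black lines are the values with all libraries, and the triangles without WT Saline library 1 stand far above the lines for Hdac5 and Hdac7 (1.39 and 1.88 on the left), while those of Hdac2 and Hdac9 stay near them.

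The second comparison set EtOH against Saline in KO mice. No member passed an adjusted p under 0.05 or under 0.30 in edgeR, and neither did any other symbol (0%). At an unadjusted p under 0.05, which 3.15% of symbols met, the count of members was 0, and no member had groups that did not overlap (10.8% of symbols). DESeq2 gave 0 members at either level, and 2 of all symbols passed an adjusted p under 0.05 there. The lowest p belonged to Hdac9, which was measured at 70.2, 76.3 and 32.1 CPM after Saline and at 48.5, 27.4 and 28.8 CPM after EtOH. A pair of Saline libraries lay above all EtOH libraries and the remaining one lay among them. Its log2 fold change was -0.81 ± 0.43 (unadjusted p = 0.0808 and adjusted p = 0.999 in edgeR), and -1.08 without the library labelled KO EtOH 1 (unadjusted p = 0.0359 in edgeR). Hdac7 spanned 11.5 to 42.3 CPM after Saline. After EtOH it stood at 5.02, 43.6 and 49.2 CPM, the first of these from only 3 counts in the library labelled KO EtOH 1, and the log2 fold change was 0.60 ± 0.72 with that library and 1.03 without it. The remaining 8 members had log2 fold changes between -0.41 (Hdac4) and 0.36 (Hdac8) with all libraries, each smaller than its standard error, and between -0.68 (Hdac2) and 0.50 (Hdac8) without the library labelled KO EtOH 1. For Hdac2 the value with all libraries was -0.33.

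The third comparison asked what loss of p53 did in mice given Saline. It shares the WT Saline libraries with the first comparison, so the values of both move together when those libraries do. No member passed an adjusted p under 0.05 in edgeR or in DESeq2 (0.0543% of symbols in edgeR). At 0.30 (25.8% of symbols) and at an unadjusted p under 0.05 (19.6% of symbols), the only member counted was Hdac9. This count also depended on single libraries. At 0.30 it was 0 without WT Saline library 2, WT Saline library 3, KO Saline library 1 or KO Saline library 2. Without WT Saline library 1 it was 4, and the share of all symbols at 0.30 was not counted in these fits. Hdac9 had an unadjusted p in edgeR of 0.0801 without WT Saline library 1, 0.118 without WT Saline library 3, 0.115 without KO Saline library 1 and 0.137 without KO Saline library 2. With all libraries it was on the higher side, as were 9.14% of symbols at that unadjusted level, whereas 10.5% were on the lower side. No member had groups that did not overlap, although 22.9% of symbols did. DESeq2 also counted only Hdac9 at an unadjusted p under 0.05. The members had a median log2 fold change of 0.23 against 0.04 over all symbols, with 7 above 0.

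Hdac9, a class IIa gene expressed in neurons that also gives rise to a shortened protein without the deacetylase domain, was the member that differed most. The KO Saline libraries (70.2, 76.3 and 32.1 CPM) included 2 above and 1 inside the WT Saline range of 23.9 to 39.3 CPM, and the means were 59.5 ± 23.9 and 30.3 ± 8.02 CPM (SD, n = 3 each). The log2 fold change was 0.97 ± 0.43 (95% interval 0.06 to 1.89), with an unadjusted p of 0.0388 and an adjusted p of 0.236 in edgeR. The exact permutation p over the 6 libraries was 0.2. Removing each library's trend with transcript length gave 0.40 (unadjusted p = 0.433 in edgeR), with the median of all symbols shifted by -0.22, and the authors' RPKM gave 0.57. Snx13, the only one of 4 neighbouring genes on chromosome 12 that passed the filter, had a like pattern of values, with a log2 fold change of 1.09 ± 0.38 in KO versus WT under Saline and -0.97 ± 0.38 in KO EtOH versus KO Saline, and its adjusted p-values in edgeR were 0.179 and 0.999. Snx13 encodes a sorting nexin. The study had listed Hdac9, Prps1l1 and Snx13 together as a genomic region with enriched ethanol effects in WT mice of the same data. The likeness of Snx13 to Hdac9 is therefore not independent of these samples, and 25.8% of all symbols had an adjusted p under 0.30 in KO versus WT under Saline. In WT EtOH versus Saline, which the study's region concerned, Snx13 was at 0.48 and Hdac9 at 0.38 on the log2 scale. Neither had an unadjusted p under 0.05 there in edgeR.

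Hdac2 was lower in KO Saline than in WT Saline in the means (204 ± 82.0 against 330 ± 67.0 CPM, SD, n = 3 each), with 1 KO library inside the WT range and a log2 fold change of -0.69 ± 0.43 (adjusted p = 0.378 in edgeR). The 5 neuronal markers summed to 5551 to 6834 CPM in KO Saline, below the 7879 to 8339 CPM of WT Saline. Inhibitory neuron markers went the other way, at 210.6 to 230.6 CPM in KO Saline and 139.1 to 185.6 CPM in WT Saline. Those of excitatory cortical neurons overlapped, at 814.2 to 1120 CPM in KO Saline and 699.8 to 1281 CPM in WT Saline. What part these had in the Hdac2 difference was not tested. Hdac7 differed by 0.94 ± 0.74 and Hdac5 by 0.28 ± 0.61. Here the call of Hdac5 turned on WT Saline library 1, and Hdac7 was called only without both libraries named with L. Without WT Saline library 1 alone, Hdac5 was called at 1.67 (adjusted p = 0.0303 in edgeR, with 14.5% of all symbols called). Without both libraries named with L, Hdac5 stood at 1.65 (adjusted p = 0.0171 in edgeR) and Hdac7 at 1.98 (adjusted p = 0.0210 in edgeR), in a fit that called 25.3% of all symbols. Without WT Saline library 2 the values were -0.21 for Hdac5 and 0.52 for Hdac7. The other 6 members differed by -0.36 (Hdac6) to 0.42 (Hdac11) on the log2 scale with standard errors of 0.33 to 0.48.

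A further comparison set KO against WT mice that had both received EtOH. No member and no other symbol passed an adjusted p under 0.05 or 0.30 in edgeR (0%), 3.24% of symbols but no member had an unadjusted p under 0.05, and 12.7% of symbols but no member had groups that did not overlap. DESeq2 gave 0 members at each level, and 3 of all symbols passed an adjusted p under 0.05 there. Hdac2 stood at 163 ± 62.7 CPM in KO EtOH and 181 ± 72.3 CPM in WT EtOH (SD, n = 3 each), and Hdac9 at 34.9 ± 11.8 and 39.5 ± 14.5 CPM. Hdac7 had the largest value, 0.71 ± 0.72 on the log2 scale, and 1.14 without the library labelled KO EtOH 1. Without that library Hdac2 went from -0.16 to -0.51 and Hdac9 from -0.23 to -0.49, still with 0 members at an unadjusted p under 0.05 in edgeR. The 95% intervals reached from -1.08 to 0.76 for Hdac2 and from -1.15 to 0.70 for Hdac9, so differences of that size in either direction lay within the error.

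Whether EtOH acted differently in KO and WT mice was tested by the interaction of Genotype and Treatment. No member passed an adjusted p under 0.05 (0% of symbols) or under 0.30 (11.1% of symbols) in edgeR, and none had an unadjusted p under 0.05 (15.2% of symbols). The same 3 counts were 0 with DESeq2 for the members, where 255 of all symbols passed an adjusted p under 0.05. The largest interaction was that of Hdac9 at -1.20 ± 0.61 (unadjusted p = 0.0680 and adjusted p = 0.369 in edgeR), where EtOH groups stood 0.38 above Saline in WT and 0.81 below it in KO on the log2 scale. Without the library labelled KO EtOH 1 it was -1.47 (unadjusted p = 0.0324 and adjusted p = 0.4998 in edgeR). The unadjusted p was also under 0.05 without WT Saline library 2 (0.0435), WT EtOH library 2 (0.0381) or KO Saline library 3 (0.0292) in edgeR. In the remaining fits that left out 1 library, the Hdac9 interaction was not under 0.05. Over the 12 such fits, 1473 to 3538 of all symbols had an unadjusted p under 0.05. Hdac11 followed at -0.58 ± 0.50 and Hdac2 at 0.53 ± 0.61, or 0.18 without the library labelled KO EtOH 1. Hdac6 was at 0.50 ± 0.51, and the other 6 lay between -0.23 and 0.27 with all libraries. Of these, 3 turned on WT Saline library 1, without which Hdac5 went from 0.01 to -1.33 (unadjusted p = 0.0356 and adjusted p = 0.181 in edgeR), Hdac7 from -0.23 to -1.25 and Hdac4 from -0.23 to -0.81.

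**Figure D4:**
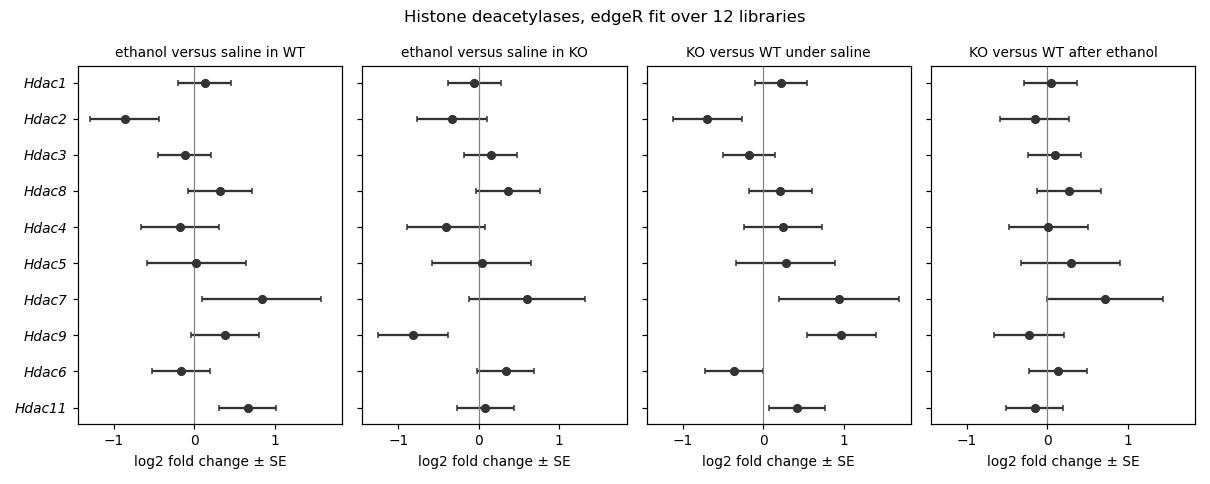
Log2 fold change with its standard error for each histone deacetylase in the 4 pairwise comparisons, from the edgeR fit over 12 libraries. Hdac2 lies lowest in WT EtOH versus Saline (-0.87) and Hdac9 highest in KO versus WT under Saline (0.97), and most other values lie within their standard error of 0.

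Transcripts were examined next, since 5 of the 10 genes are listed as more than 1 and the authors' quantification divided reads among them. Of the 24 member transcripts 21 passed the filter, and none passed an adjusted p under 0.05 in any comparison in edgeR. At an unadjusted p under 0.05 there were 6 of 21 in WT EtOH versus Saline (18.2% of all transcripts), 1 in KO EtOH versus Saline (2.99%), 6 in KO versus WT under Saline (19.1%), 0 in KO versus WT after EtOH (3.29%) and 1 for the interaction (15.3%). Of the 6 in WT EtOH, 5 were transcripts of Hdac7 and 1 of Hdac5 (NM_001284248), all on the higher side, and the same 6 transcripts made up the count for KO versus WT under Saline.

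The Hdac7 transcripts showed how much rested on the division of reads. The form with the shortest protein, NM_001204281 (851 residues), took 96.7%, 95.1% and 87.01% of the Hdac7 count in WT Saline, 63.3%, 54.6% and 69.0% in WT EtOH, and 36.5%, 78.8% and 56.6% in KO Saline. In KO EtOH it took 95.1%, 53.9% and 62.0%. NM_019572 (938 residues) accordingly had counts of 0.2, 0.1 and 2.3 in the WT Saline libraries and of 30.6, 14.2 and 10.4 in the WT EtOH libraries, and its log2 fold change was 4.10 (adjusted p = 0.165 in edgeR and 0.0465 in DESeq2). In KO versus WT under Saline it was 5.00 (adjusted p = 0.128 in edgeR and 0.00997 in DESeq2). With at most 2.3 counts in any WT Saline library, these fitted folds depend on the prior count and are no measure of size. Summed Hdac7 gave 0.83 and 0.94 in the same comparisons. Hdac7 overlaps Slc48a1, which lies on the opposite strand.

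The division itself was nearly fixed in 3 libraries. Hdac5 is listed as 5 transcripts, and their shares were 30.5%, 0.0593%, 7.62%, 30.1% and 31.7% in WT Saline library 1, in WT Saline library 2 and in the library labelled KO EtOH 1, equal within 0.1 percentage points although the Hdac5 counts were 321, 78 and 45. In the other 9 libraries the share of NM_001284248 ran from 1.33% to 23.6%. Hdac7 shares coincided likewise in WT Saline library 2 and the library labelled KO EtOH 1, which held 3 Hdac7 counts. Over all symbols whose count was divided, with at least 10 counts in both libraries, WT Saline library 1 and the library labelled KO EtOH 1 gave the same shares within 0.1 percentage points for 39.1% of 2427 symbols. WT Saline libraries 1 and 2 did so for 28.4% of 3314, and WT Saline library 2 and the library labelled KO EtOH 1 for 23.7% of 2463, whereas the median of the other 63 pairs was 8.90%. Transcript values of WT Saline libraries 1 and 2 carry this division, whereas sums per gene do not depend on it.

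**Figure D5:**
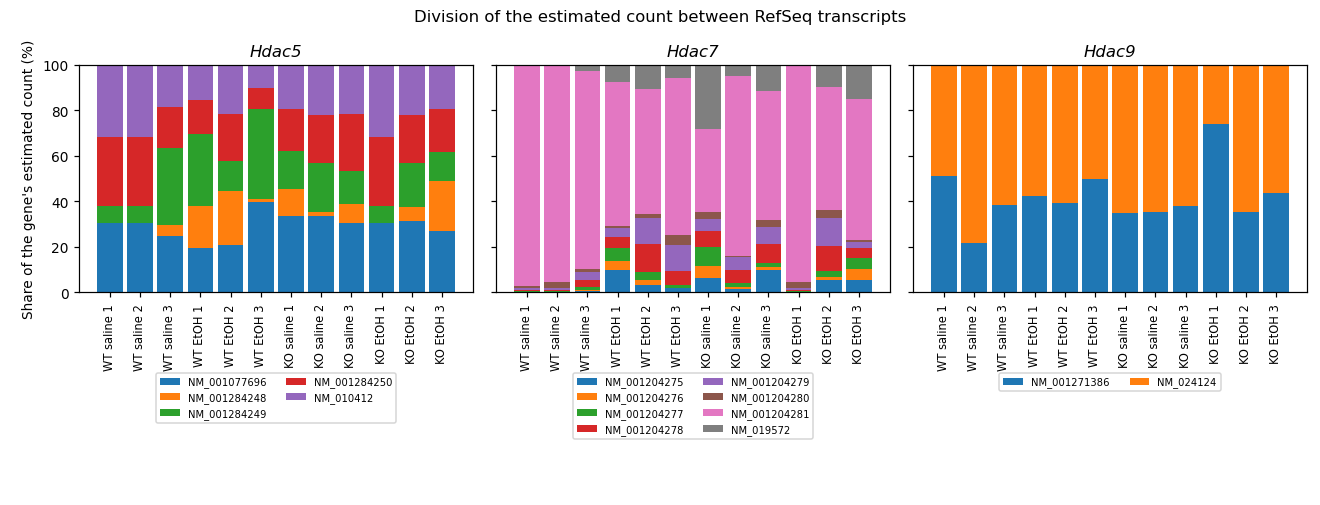
Share of the estimated count of Hdac5, Hdac7 and Hdac9 given to each RefSeq transcript (percent, stacked to 100) in each of 12 libraries. Hdac5 has the same 5 shares in WT Saline 1, WT Saline 2 and KO EtOH 1, and Hdac7 is almost all NM_001204281 in those 3 libraries.

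Hdac9 is listed as 2 transcripts with separate starts. NM_001271386 (chr12:34047582-34917095, - strand, 25 exons) codes for the full-length protein of 1067 residues. NM_024124 (chr12:34371497-34528889, 12 exons) starts and ends inside it and codes for 588 residues, the shortened form that lacks the catalytic domain. The shortened form took 61.3% of the summed count. Its share was 48.7%, 78.1% and 61.6% in WT Saline, 57.5%, 60.8% and 50.3% in WT EtOH, 65.3%, 64.8% and 62.2% in KO Saline and 26.2%, 64.5% and 56.3% in KO EtOH. The range of WT Saline thus took in every other library apart from the one labelled KO EtOH 1, in which Hdac9 had 29 counts. For NM_024124 alone the log2 fold change in KO EtOH versus Saline was -1.26 ± 0.48 (unadjusted p = 0.0201 and adjusted p = 0.9998 in edgeR).

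The windows around both Hdac9 starts and around the start of the main Hdac7 transcript are shown to set these starts beside that of Hdac2. They come from RefSeq on GRCm38.p6, on the - strand, at chr12:34917046-34917345 (full-length Hdac9), chr12:34528840-34529139 (shortened Hdac9) and chr15:97814814-97815113 (Hdac7 NM_001204281). Capitals have the meaning given for Hdac2.
Hdac9 full-length: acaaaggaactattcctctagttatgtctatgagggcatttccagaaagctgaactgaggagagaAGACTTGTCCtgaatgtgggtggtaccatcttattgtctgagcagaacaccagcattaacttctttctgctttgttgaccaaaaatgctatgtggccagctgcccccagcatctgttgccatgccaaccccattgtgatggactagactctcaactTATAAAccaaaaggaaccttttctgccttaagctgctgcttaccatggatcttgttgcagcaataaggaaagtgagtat
Hdac9 shortened: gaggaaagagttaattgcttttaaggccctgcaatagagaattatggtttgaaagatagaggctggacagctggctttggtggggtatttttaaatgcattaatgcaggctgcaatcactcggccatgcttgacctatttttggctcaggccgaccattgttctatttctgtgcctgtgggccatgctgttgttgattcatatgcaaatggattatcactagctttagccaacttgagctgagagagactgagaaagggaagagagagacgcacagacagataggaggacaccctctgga
Hdac7: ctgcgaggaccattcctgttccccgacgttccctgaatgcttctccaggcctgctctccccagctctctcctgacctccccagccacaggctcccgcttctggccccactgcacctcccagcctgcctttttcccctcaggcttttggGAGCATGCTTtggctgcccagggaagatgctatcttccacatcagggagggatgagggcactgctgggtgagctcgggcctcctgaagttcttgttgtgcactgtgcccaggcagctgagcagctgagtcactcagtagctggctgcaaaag
Unlike Hdac2, the Hdac9 windows are poor in G and C (44.0% and 45.3%) and hold 0 and 3 CpG. The full-length start has a TATAAA match at -29, a motif in 13.6% of all promoters, and a p53 half-site match at -185, a motif in 8.36%. The shortened start has no match to the 6 motifs. The Hdac7 window is 60.7% G and C with 5 CpG, and its only match is a p53 half-site at -102. These matches describe the letters alone, and p53 binding was not measured here.

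Some members also varied together across the 12 libraries. Of 45 pairs, 6 had an adjusted p under 0.05 in permutation tests of Pearson's r on log2 CPM. These permutations moved libraries freely between groups, so differences between groups enter the p-values. The share of such pairs among all symbols was not determined, so the count is not a trait of these genes. Hdac4 and Hdac5 had r = 0.83 (permutation p = 0.00074, adjusted p = 0.0284) and Spearman's rho = 0.87 (permutation p = 0.00047, adjusted p = 0.0212), but r was 0.57 without the 2 libraries farthest from the median of Hdac4, so the pooled value rested in part on them. Within groups, r was 0.91 for that pair. Hdac2 and Hdac11 ran in opposite directions, with r = -0.78 (permutation p = 0.00244, adjusted p = 0.0351), rho = -0.74 (permutation p = 0.00766, adjusted p = 0.0937) and r = -0.71 without the 2 farthest libraries. Within groups, r was -0.65. Hdac3 and Hdac9 had r = -0.77 (permutation p = 0.00467, adjusted p = 0.0351), rho = -0.69 (permutation p = 0.0166, adjusted p = 0.113), r = -0.71 without the 2 farthest libraries and -0.80 within groups. The other 3 pairs were Hdac1 with Hdac7 (r = 0.81, rho = 0.68), Hdac5 with Hdac7 (r = 0.73, rho = 0.74) and Hdac2 with Hdac8 (r = -0.75, rho = -0.75), and Hdac5 with Hdac7 was at r = 0.46 without the 2 farthest libraries. Library composition moved with several of these genes. The TMM factor, by which CPM is scaled, had a rank correlation of 0.89 with Hdac7 and 0.74 with Hdac1, and its part in the pairs was not tested.

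Genes that work with the histone deacetylases were counted from lists of complexes and families, and in no list did a gene pass an adjusted p under 0.05 in any comparison in edgeR. Of 33 subunits of the corepressor complexes, 6 had an unadjusted p under 0.05 on the higher side in WT EtOH mice and 1 on the lower side, where 9.99% and 8.36% of all symbols did. Their median log2 fold change was 0.12. Gatad2b, a NuRD subunit, stood at 1.99 ± 1.40 CPM in WT Saline and 11.7 ± 3.54 CPM in WT EtOH (SD, n = 3 each), with a log2 fold change of 2.43 and an adjusted p of 0.165 in edgeR. Mta3, also of NuRD, Tbl1x, of NCoR, and Rcor1, of CoREST, had log2 fold changes of 1.54, 1.82 and 2.40 with adjusted p-values of 0.182, 0.185 and 0.189 in edgeR. In KO versus WT under Saline, which shares the WT Saline libraries, 7 of the 33 were on the higher side and 1 on the lower. Of all symbols, 9.14% were higher and 10.5% lower there. In KO EtOH versus Saline 0 of the 33 were on either side, and 3.15% of all symbols met that level.

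A partner of the class IIa enzymes, Sik2, had the smallest p of the listed genes. The study had named Sik2 among the genes most affected by EtOH in WT mice of the same data. Its rank here is therefore not independent of these samples. Of 21 tested Mef2 factors, kinases and other partners (22 listed), 5 were on the higher side in WT EtOH mice at that unadjusted level. On the lower side there were 0, where 9.99% of all symbols were higher and 8.36% lower. The median log2 fold change was 0.37, and whether the list exceeds the background was not tested. Sik2, a salt-inducible kinase that drives class IIa enzymes out of the nucleus, stood at 4.02 ± 0.856 CPM in WT Saline, 17.0 ± 2.18 in WT EtOH, 15.9 ± 1.61 in KO Saline and 12.1 ± 3.48 in KO EtOH (SD, n = 3 each). The log2 fold change in WT EtOH versus Saline was 2.06 ± 0.39 (adjusted p = 0.0673 in edgeR). Camk2d, Sik3 and Sik1 followed at 1.54, 1.14 and 1.90, with adjusted p-values of 0.199 to 0.215 in edgeR. Under Saline, KO versus WT, 1 of the 21 was on the higher side (Sik2, 1.97), as were 9.14% of all symbols. The interaction for Sik2 was -2.40 ± 0.54 (adjusted p = 0.234 in edgeR).

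Enzymes that add acetyl groups, proteins that bind them and the other deacetylases completed the lists. Among 10 histone acetyltransferases, 1 was on the higher side in WT EtOH versus Saline, namely Crebbp, the CREB-binding protein, at 5.62 ± 1.90 CPM in WT Saline and 24.5 ± 12.6 CPM in WT EtOH (SD, n = 3 each), with a log2 fold change of 2.18 and an adjusted p of 0.0968 in edgeR. Kat6b, Kat8 and Hat1 had values of 0.87, -0.51 and -0.58. Of 16 acetyl-lysine readers 2 were on the higher side, Taf1 at 1.04 and Phip at 1.08, and Baz2b and Brd2 stood at 1.22 and 0.80. Of 8 other deacetylases (the sirtuins and Hdac10) 2 were on the lower side, Sirt5 at -1.03 and Sirt3 at -1.13, while Sirt1 and Sirt4 stood at -0.49 and 0.84. Sirt3, Sirt4 and Sirt5 are the mitochondrial sirtuins. The study had listed Sirt3 among its EtOH genes in WT mice of the same data, so its place here is not independent either. With 9.99% of all symbols on the higher side and 8.36% on the lower, counts of 1 of 10 and 2 of 16 are near the background, and 2 of 8 is a count of only 2 genes. The medians of the last 3 lists were 0.27, 0.65 and -0.29 on the log2 scale, against 0.06 over all symbols. In KO EtOH versus Saline an unadjusted p under 0.05 was met by 3.15% of all symbols. The count was 0 for acetyltransferases, other deacetylases and class IIa partners and 1 for the readers (Phip, -0.995).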

How the data were processed

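Stranded RNA-Seq libraries (12, in 4 groups of 3 by the sample labels) were analysed from 2 deposited tables per library. According to the submitters' processing notes, the authors aligned reads with Bowtie2 to mm10 (GRCm38) and quantified RefSeq transcripts in Partek. Versions are not given in the sources used here. The deposited estimated counts are unscaled and partly fractional (43.2% to 45.5% whole). The RPKM that the authors deposited are per transcript length and depth, and every library holds almost one set of sorted values, as after quantile normalization, a step not given in the sources used here. In the files the stop coordinate is 1 past the end, and ends are given here corrected.

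Counts were summed per gene symbol, rounded, filtered with filterByExpr, TMM-scaled and tested with the edgeR 4.0.16 quasi-likelihood test (R 4.3.3) in 1 model over 12 libraries, two-sided, with Benjamini-Hochberg adjustment over all 14739 symbols. Transcripts were tested alike over 21715. Intervals are 95% and errors after ± are standard errors unless named SD. DESeq2 1.42.0 and limma 3.58.1 were used in alternatives. Only edgeR (with and without the length trend removed), DESeq2 and limma on log2(RPKM + 1) were tested on simulated data. CPM use TMM-scaled library sizes. RPKM were tested as log2(RPKM + 1) or log2(RPKM + 0.1) at a mean of at least 1. Correlations used 100000 permutations. Counts have a depth of 719735 to 17066392 per library, and 3 counts in the shallowest library are 5.02 CPM.

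All 10 members were named in every comparison, and from each list at most 4 genes by smallest p in WT EtOH versus Saline. Members and lists were chosen with earlier results of these data known. Lengths came from GENCODE M21 and promoters from RefSeq (GRCm38.p6).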

Additional observations from a re-analysis of the deposited data

How the results depend on the processing

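The 10 histone deacetylases gave 0 calls at an adjusted p under 0.05 in every comparison under DESeq2, library size without TMM, both other count filters (the stricter left Hdac7 and Hdac8 untested), limma on log2(RPKM + 1) or log2(RPKM + 0.1), the highest transcript in place of the sum, only the groups compared (pairwise comparisons), and removal of trends with transcript length or with length and GC content (the last added after seeing the data). Without the 2 libraries named with L there were 2 calls in WT EtOH versus Saline and 2 in KO versus WT under Saline (Hdac5 and Hdac7 in both). Over the fits that left out 1 library each, calls ranged from 0 to 1 in KO versus WT under Saline and were 0 in the other comparisons. Member transcripts called in any comparison numbered 0 with edgeR, 2 with DESeq2 and 4 without the libraries named with L. Among all transcripts, edgeR called 0.0553% in WT EtOH versus Saline and 0.0691% in KO versus WT under Saline. The shares with DESeq2 and without the libraries named with L were not counted, so the member counts there have no background. Calls over all symbols moved more. In WT EtOH versus Saline they were 11 with edgeR, 488 with DESeq2, 0 with limma and 3220 without the libraries named with L. In KO versus WT under Saline they were 8, 717, 0 and 3782. In the interaction DESeq2 called 255 symbols and edgeR 0. When 1 library was left out, members at an adjusted p under 0.30 numbered 0 to 4 in WT EtOH versus Saline. The range was also 0 to 4 in KO versus WT under Saline, and 1 was counted in each with all libraries. In the interaction the range was 0 to 1. Shares of all symbols at 0.30 were not counted in the fits that left out 1 library. Hdac2 stayed below 0 in WT EtOH versus Saline in all 22 alternatives (-1.13 to -0.30). Hdac9 stayed above 0 in KO versus WT under Saline in all 22 (0.40 to 1.46). This was not particular to them, since Hdac1, Hdac7, Hdac8 and Hdac11 kept their sign in both comparisons in every alternative that tested them. In KO versus WT under Saline, Hdac2 did so too. The alternatives reuse the same libraries, and without TMM factors the median of all symbols shifted by 0.44 and 0.45 in these comparisons. With the length trend removed, Hdac4 was at -0.97 in WT EtOH versus Saline (unadjusted p = 0.0406 in edgeR) and Hdac6 at -0.80 in KO versus WT under Saline (unadjusted p = 0.0437 in edgeR). In that fit the median of all symbols itself shifted by -0.25 and -0.22 in these comparisons. The shares of all symbols at that p in this fit are not given here. Where leaving out 1 library leaves a group with 2, its spread is shared with the other groups. No paired analysis was possible because the groups share no replicate number in the labels. Depth limits Hdac7 and Hdac8 most, which had 3 and 5 counts in the library labelled KO EtOH 1.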
